A study of Mus musculus with 36 samples.

Results

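The proteasome is the barrel-shaped protease that breaks down ubiquitin-tagged proteins, and this account follows the transcripts of its subunits, activators, inhibitor and assembly factors in mouse hippocampus during induced neurodegeneration. Members were the rows of the RNA count table whose gene symbol begins with Psma, Psmb, Psmc, Psmd, Psme, Psmf or Psmg and a digit, with pseudogenes left out. The rule found 49 genes of 37991 in the table. Of these, 48 have a proteasome role, and Psmc3ip, which encodes a partner of the recombinase machinery of meiosis, matches by its name only. Psmb9, the remaining inducible catalytic gene, had no row under its current identifier and is not analysed here. The inducible class therefore held 4 of its 5 genes (Psmb8, Psmb10, Psme1 and Psme2), set against 31 constitutive subunits.

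Hippocampus came from adult female mice, given as 3 months old, at 2 or 6 weeks after induction of p25, the cleaved form of the Cdk5 activator p35. Mice labelled CKp25 carry both transgenes of the CK-p25 model, in which a CaMKII promoter directs expression to forebrain excitatory neurons, and mice labelled CK are control littermates whose own alleles the labels do not give. Each of the 4 groups (CK and CKp25 at 2 weeks, CK and CKp25 at 6 weeks) was 1 RNA sample with 3 libraries, 12 in all. The labels do not say that the libraries are separate animals, and the spread that p-values rest on is that of libraries, which can be technical in part.

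Gene counts were 5029996 to 6450140 per library, and 0.182 to 0.21% of them fell on the 49 genes. Of the 49 genes, 47 passed the filter on low counts and were tested among 14457 genes. Levels are CPM, counts scaled to a common library total, changes are log2 fold changes with standard errors (SE), and a gene was called at an adjusted p under 0.05 in edgeR's quasi-likelihood test, Benjamini-Hochberg over all genes tested. In whole tissue, more cells of a type and more RNA per cell cannot be told apart. Libraries CK_2wk_4520 and CKp25_2wk_4518 stood apart at 2 weeks, where multiply aligned reads made up 7.15 and 6.81% of the total, while the other libraries of that time had 12.2 to 14.3%. At 6 weeks the same share ran from 6.86 to 9.52% in CK libraries and from 11.5 to 13.9% in CKp25 libraries, and it cannot be told apart from the genotype there.

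The catalytic chamber, the 20S core, is a stack of rings of alpha subunits (Psma genes) around rings of beta subunits (Psmb genes). Of the beta subunits Psmb5, Psmb6 and Psmb7 carry the active sites. The 19S cap, built of ATPases (Psmc genes) and non-ATPases (Psmd genes), recognises and unfolds the substrate. Interferon signalling can induce Psmb8, Psmb9 and Psmb10, which replace Psmb5, Psmb6 and Psmb7 in newly made cores and give the immunoproteasome, and Psme1 and Psme2, whose products form the 11S activator ring PA28. Immunoproteasome products feed the loading of peptides on MHC class I molecules. In brain, microglia are a known site of expression of the inducible genes.

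Start-site windows show where regulatory letters lie near some of the genes that moved and near some of their constitutive counterparts. Windows of 250 bases before to 50 bases after the start site, from RefSeq on build GRCm38.p6, were at hand for 41 of the 49 genes (44 windows). Several kinds of letters were searched on either strand: an interferon-stimulated element (GAAANNGAAA), a gamma-interferon element (TTCNNNGAA) and an antioxidant-type element bound by NFE2L1, the inducer of proteasome subunits (TGACNNNGC). The 4 windows below hold a match in an inducible gene (Psmb8, Psme1) or in a constitutive catalytic gene (Psmb5, Psmb6), and capitals mark the matched letters. Each of the 4 holds 1 match and none to the other motifs searched.
Psmb8 (chr17:34197945-34198244, plus strand): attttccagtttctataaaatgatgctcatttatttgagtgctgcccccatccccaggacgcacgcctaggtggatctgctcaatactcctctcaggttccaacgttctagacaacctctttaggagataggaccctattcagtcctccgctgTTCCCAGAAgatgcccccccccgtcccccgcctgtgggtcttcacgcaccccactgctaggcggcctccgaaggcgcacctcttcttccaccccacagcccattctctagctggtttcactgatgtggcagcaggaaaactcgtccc
Psme1 (chr14:55578244-55578543, plus strand): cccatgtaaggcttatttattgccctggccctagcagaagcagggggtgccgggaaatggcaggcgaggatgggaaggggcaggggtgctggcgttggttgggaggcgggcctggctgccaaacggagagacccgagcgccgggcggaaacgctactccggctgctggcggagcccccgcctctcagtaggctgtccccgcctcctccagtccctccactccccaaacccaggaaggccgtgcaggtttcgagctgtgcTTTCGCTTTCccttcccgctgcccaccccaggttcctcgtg
Psmb5 (chr14:54617946-54618245, minus strand): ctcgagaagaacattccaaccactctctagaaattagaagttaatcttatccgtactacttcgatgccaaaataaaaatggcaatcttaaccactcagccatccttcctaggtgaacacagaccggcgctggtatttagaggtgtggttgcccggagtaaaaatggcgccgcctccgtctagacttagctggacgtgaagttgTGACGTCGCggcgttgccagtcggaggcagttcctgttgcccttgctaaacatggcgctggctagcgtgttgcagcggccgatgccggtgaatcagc
Psmb6 (chr11:70525107-70525406, plus strand): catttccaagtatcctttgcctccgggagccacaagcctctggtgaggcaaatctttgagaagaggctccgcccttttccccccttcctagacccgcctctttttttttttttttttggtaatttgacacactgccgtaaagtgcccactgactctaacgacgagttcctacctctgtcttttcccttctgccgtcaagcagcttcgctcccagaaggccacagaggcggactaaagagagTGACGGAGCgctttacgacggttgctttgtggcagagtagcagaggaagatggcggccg

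In these windows the Psmb8 match was to the gamma-interferon element, 97 bases before the start site, and the Psme1 match was to the interferon-stimulated element on the reverse strand, at base 10 after the start. The windows of Psmb10, Psme2, Psme2b and Psmc3ip, which also rose, held no match to the interferon, gamma or NFE2L1 elements. Psmb7 had no window. Psmd9 and Psmg4, not called at either time, held the interferon-stimulated element, and Psmg1, also not called, the gamma-interferon element. Psme2 had more than 1 of the 5 inducible windows, and these overlap. The interferon-stimulated element was in 3.44% of all 32851 windows, in 1 of the 5 inducible windows and in 2 of the 27 constitutive windows. The gamma-interferon element was in 8.3% of all windows, in 1 of 5 inducible and in 1 of 27 constitutive windows. The NFE2L1 element was in 12.4% of all windows, in 4 of 27 constitutive windows (Psmb5, Psmb6, Psmc6 and Psmd12) and in 0 of 5 inducible windows. The CCAAT box, searched as a common promoter element, was in 37.4% of all windows, in 10 of 27 constitutive and in 0 of 5 inducible windows. A match describes the letters alone, and the absence of a match says nothing of the factor.

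The immunoproteasome genes that could be measured were all higher in CKp25 hippocampus at both times, and the constitutive subunits were not. Psmb8 rose the most, to levels 12.4-fold and 15.1-fold those of CK at 2 and 6 weeks, while Psmb10, Psme1 and Psme2 rose by 1.59-fold to 2.15-fold. At 2 weeks 6 of the 47 members tested were higher (against 11.6% of all genes tested) and 0 were lower (7.99% of all genes). The 6 were the 4 inducible genes, Psme2b, and Psmc3ip, which matches by its name only. At 6 weeks the same 6 were higher, against 18.1% of all genes, and 1 was lower, against 15.2%. As a share the members called were thus near or below the background. The median log2 fold change of the 4 inducible genes was 1.03 at 2 weeks and 0.99 at 6 weeks, that of the 31 constitutive subunits was -0.12 and -0.08, and that of all genes tested was -0.01 and 0.00.

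**Figure D1:**
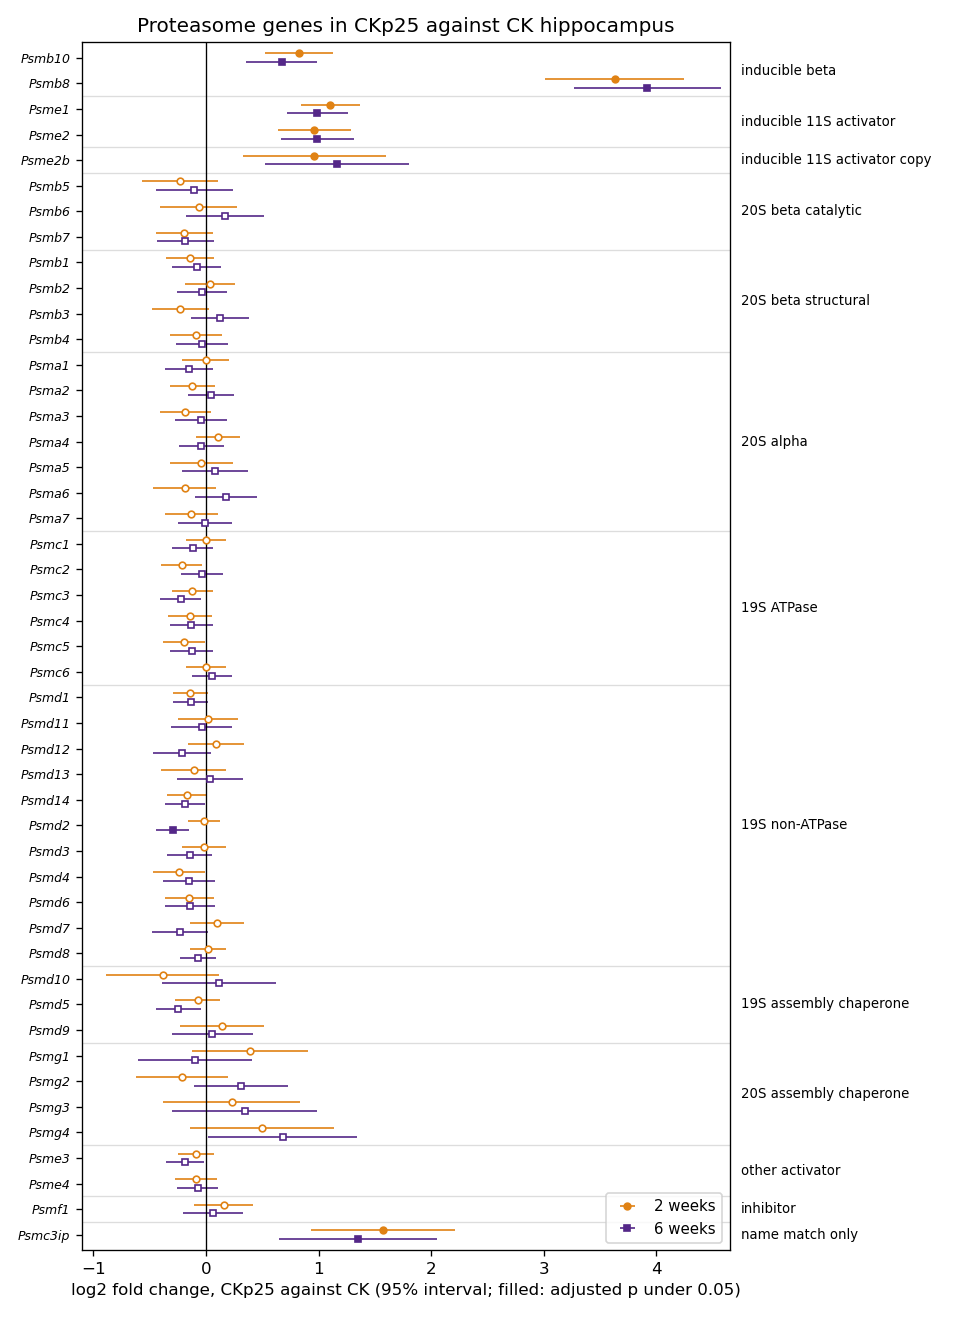
Log2 fold change of CKp25 against CK (x axis) with 95% intervals for the 47 tested genes (y axis, grouped by role), at 2 weeks (circles) and 6 weeks (squares), filled where the adjusted p was under 0.05. The inducible genes and Psmc3ip lie right of 0 at both times, Psmb8 farthest, and the constitutive subunits lie between -0.30 and 0.18.

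Psmb8 encodes the inducible subunit that replaces Psmb5 at the chymotrypsin-like site. At 2 weeks it stood at 2.52, 2.05 and 0.813 CPM in CK and at 21.4, 23.4 and 24.02 CPM in CKp25. At 6 weeks it stood at 1.42, 2.23 and 0.698 CPM in CK and at 28.4, 17.1 and 20.2 CPM in CKp25. The lowest CKp25 library was above the highest CK library at each time, and the CK values rest on few counts. The log2 fold change was 3.63 ± 0.29 (SE, edgeR adjusted p = 8.56e-08) at 2 weeks and 3.92 ± 0.31 (adjusted p = 8.30e-08) at 6 weeks. The effects at the 2 times differed by 0.29 with a 95% interval of -0.79 to 1.37 (edgeR adjusted p = 0.853).

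Psmb10 encodes the inducible subunit that replaces Psmb7 at the trypsin-like site. At 2 weeks CK libraries held 12.9, 15.3 and 13.6 CPM and CKp25 libraries 25.1, 23.6 and 25.3 CPM. At 6 weeks CK libraries held 16.1, 10.7 and 13.6 CPM and CKp25 libraries 24.8, 18.5 and 21.5 CPM. The groups did not overlap at either time, though at 6 weeks the nearest libraries were closer than at 2 weeks. Psmb10 rose by 0.83 ± 0.14 on the log2 scale at 2 weeks (SE, edgeR adjusted p = 5.17e-04) and by 0.67 ± 0.15 at 6 weeks (adjusted p = 0.00212).

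Psme1 encodes the alpha subunit of the 11S activator. It stood at 14.3, 18 and 17.1 CPM in CK and 33.1, 35.6 and 36.9 CPM in CKp25 at 2 weeks, and at 17.9, 12.8 and 16.8 CPM against 32.4, 32.2 and 29.8 CPM at 6 weeks. Every CKp25 library was above every CK library, and the rise was 1.10 ± 0.12 (SE, edgeR adjusted p = 4.77e-06) and 0.99 ± 0.13 (adjusted p = 1.72e-05) on the log2 scale. Psme2 encodes the beta subunit of the same ring. Its levels were 7.04, 6.75 and 6.30 CPM in CK and 11.95, 13.9 and 13.6 CPM in CKp25 at 2 weeks, and 6.51, 6.27 and 6.64 CPM against 12.8, 11.9 and 14.0 CPM at 6 weeks. Psme2 rose by 0.96 ± 0.15 (SE, edgeR adjusted p = 1.90e-04) and 0.99 ± 0.15 (adjusted p = 1.14e-04), again with no overlap between groups.

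In the RefSeq gene order Psmb8 lies between Tap1 and Tap2 on chromosome 17, with Psmb9 on the far side of Tap1, and Psme1 and Psme2 lie close together on chromosome 14 beside Rnf31 and Irf9. The annotated span of Psme1 overlaps that of Emc9. Counts of genes that overlap may be affected by reads of the other gene, since the sources used here do not state whether counting used the strand.

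Psme2b is a near-identical copy of Psme2 on chromosome 11. Reads that align to both copies are left out of the deposited counts, so the levels of Psme2b and of Psme2 may both be too low. The annotated span of Psme2b overlaps 9930111J21Rik1, which lies near the interferon-induced GTPase genes Irgm1 and Tgtp1. At 2 weeks Psme2b was at 3.19, 5.93 and 3.25 CPM in CK and 8.75, 5.19 and 9.81 CPM in CKp25, where CKp25_2wk_4890 fell inside the CK range. At 6 weeks it was at 3.87, 2.83 and 4.71 CPM against 11, 8.05 and 6.91 CPM, with no overlap. The log2 fold change was 0.96 ± 0.30 (SE, edgeR adjusted p = 0.0311) and 1.16 ± 0.30 (adjusted p = 0.00685). The call at 2 weeks was lost when any of CK_2wk_4520, CK_2wk_4893, CKp25_2wk_4518 or CKp25_2wk_4894 was left out, with log2 fold changes of 0.79, 0.82, 0.89 and 0.80 (edgeR adjusted p = 0.0817 to 0.145).

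**Figure D2:**
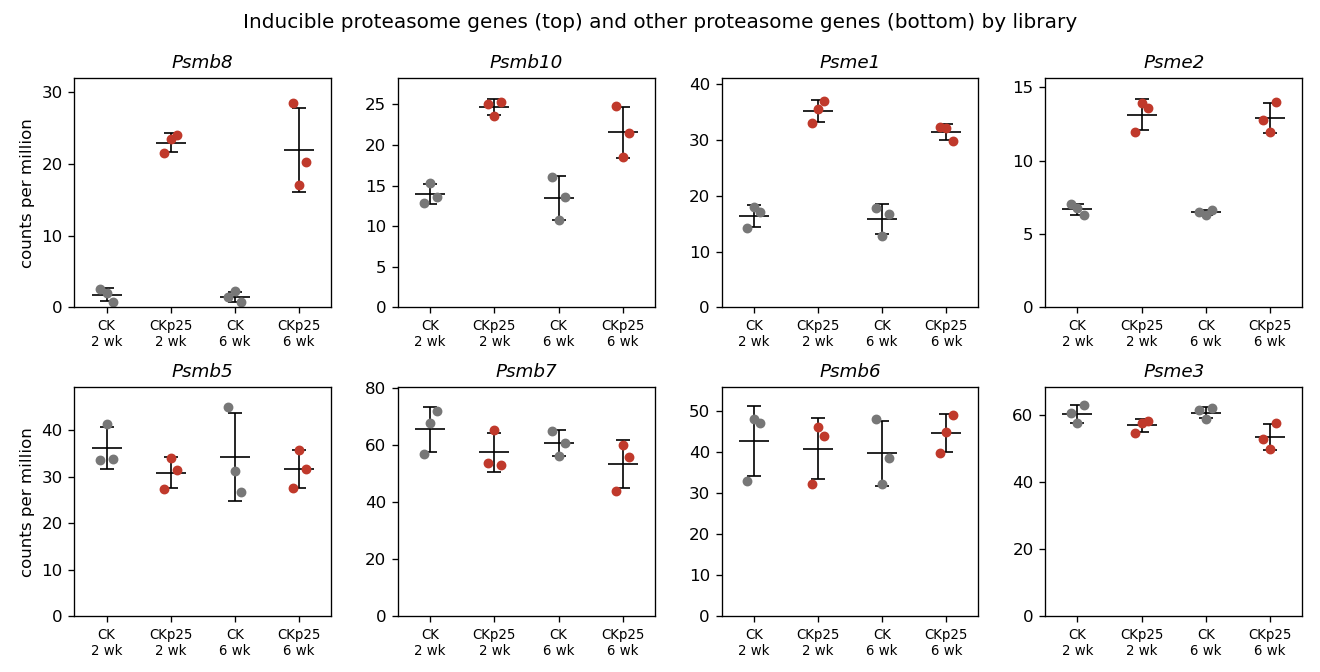
CPM (y axis, from 0) in each of the 3 libraries per group (points), with mean and SD (bars), for 4 inducible genes above and 4 other proteasome genes below. In the upper panels the CKp25 points sit above all CK points of the same time. In the lower panels the groups overlap except for Psme3 at 6 weeks.

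The constitutive catalytic genes did not change detectably. Psmb5, of the chymotrypsin-like site, was at 33.5, 41.3 and 33.7 CPM in CK and 27.3, 33.9 and 31.4 CPM in CKp25 at 2 weeks, and at 45.0, 31.2 and 26.7 CPM against 27.6, 35.8 and 31.6 CPM at 6 weeks. Its groups overlapped at both times, with log2 fold changes of -0.23 ± 0.16 (SE, edgeR adjusted p = 0.354) and -0.10 ± 0.16 (adjusted p = 0.681). The 95% intervals were -0.57 to 0.11 and -0.44 to 0.24, so a rise of the size seen for Psmb8 or Psme1 lies outside them.

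Psmb6, of the caspase-like site, was at 33.0, 48.1 and 47.1 CPM in CK and 32.4, 46.2 and 44.0 CPM in CKp25 at 2 weeks, and at 48.2, 32.4 and 38.6 CPM against 39.8, 44.9 and 49.1 CPM at 6 weeks. The lowest value of each 2-week group came from the libraries that stood apart, CK_2wk_4520 and CKp25_2wk_4518. Its log2 fold change was -0.06 ± 0.16 (SE, edgeR adjusted p = 0.835) and 0.17 ± 0.16 (adjusted p = 0.470).

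Psmb7, of the trypsin-like site, was at 56.8, 67.9 and 72.1 CPM in CK and 53.9, 65.5 and 53.1 CPM in CKp25 at 2 weeks, and at 65.1, 56.2 and 60.9 CPM against 44.0, 60.1 and 56.0 CPM at 6 weeks. The groups overlapped, with log2 fold changes of -0.19 ± 0.12 (SE, edgeR adjusted p = 0.296) and -0.18 ± 0.12 (adjusted p = 0.271). With the share of reads aligned to several places as a covariate the 6-week value was -0.39 (edgeR adjusted p = 0.0334).

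Within each library, the inducible gene was then set against the constitutive gene it replaces, which cancels the library's depth and scaling. Per 100 Psmb5 counts there were 2.41 to 7.5 Psmb8 counts in the 6 CK libraries and 47.8 to 102.9 in the 6 CKp25 libraries. Counts are not divided by transcript length, so these ratios compare libraries and do not give the make-up of the protease. The log2 ratio of Psmb8 to Psmb5 was higher in CKp25 by 3.99 over both times (exact permutation test within times, two-sided, p = 0.005, adjusted p = 0.005 over 2 ratios, the smallest p that the 400 arrangements allow), and it was higher in each CKp25 library than in each CK library. Psmb10 stood at 18.9 to 24.7 counts per 100 Psmb7 counts in CK and at 30.8 to 56.4 in CKp25. That log2 ratio was higher by 0.95 (exact permutation test, two-sided, p = 0.005, adjusted p = 0.005). Within a time, 3 against 3 libraries allow no p below 0.1, and each ratio reached it at each time, with differences of 3.97 and 4.02 for Psmb8 to Psmb5 and of 1.01 and 0.88 for Psmb10 to Psmb7 at 2 and 6 weeks.

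**Figure D3:**
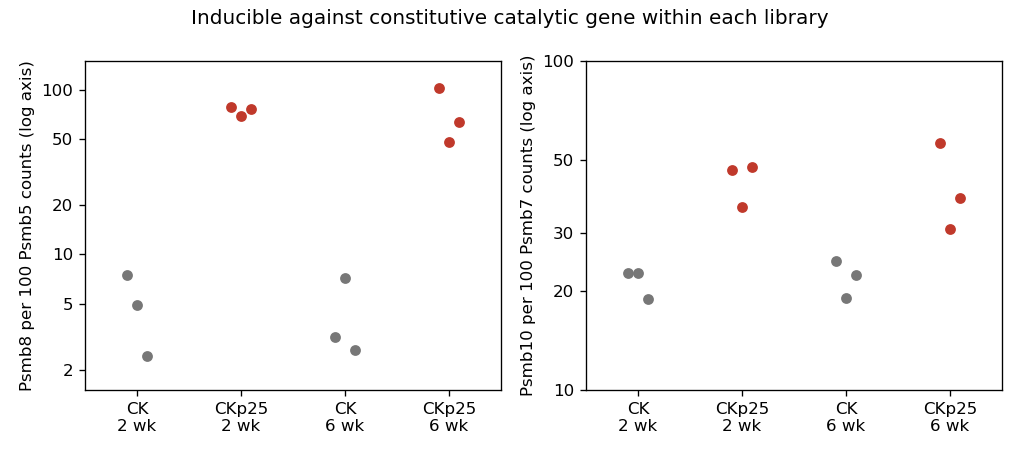
Counts of Psmb8 per 100 counts of Psmb5 (left) and of Psmb10 per 100 counts of Psmb7 (right) on log y axes, with a point for each library by group. CKp25 points lie at 47.8 to 102.9 and 30.8 to 56.4, above all CK points in both panels.

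Across the 31 constitutive subunits the differences were small, and most leaned below 0. At 2 weeks edgeR called 0 of them in either direction, as did DESeq2 and limma-voom. At an unadjusted p under 0.05 there were 3, all of them lower (Psmc2, Psmc5 and Psmd4). By that measure 2153 of all 14457 genes tested were lower and 2395 higher. Log2 fold changes ran from -0.24 to 0.10 at 2 weeks and from -0.30 to 0.18 at 6 weeks, and were below 0 in 23 and 24 of the 31, against 51.9 and 49.6% of all genes tested. Of the 31, 17 were below 0 at both times and 1 was above 0 at both. The widest 95% intervals of these subunits reached down to -0.57 and up to 0.52. Between libraries of a group their CPM varied by a median coefficient of variation of 6.83 to 8.66%.

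The alpha ring (Psma1, Psma2, Psma3, Psma4, Psma5, Psma6 and Psma7), which gates entry to the chamber, had 0 of 7 genes called at either time by edgeR, with summed levels of 290.6 ± 17.2 CPM in CK and 276.4 ± 15.2 CPM in CKp25 at 2 weeks and 274.1 ± 19 against 274.2 ± 17.02 CPM at 6 weeks (SD, n = 3). The beta subunits without an active site (Psmb1, Psmb2, Psmb3 and Psmb4) had 0 of 4 called, and summed to 187.7 ± 22.1 against 173.7 ± 11.4 CPM and to 178.4 ± 12.5 against 175.7 ± 14.3 CPM. In both sets the CK and CKp25 sums overlapped. Of all genes tested, 11.6 and 18.1% were called higher at 2 and 6 weeks and 7.99 and 15.2% lower. Here and below, 0 calls in role sets this small therefore say little. Summed over the 14 constitutive core genes, CK_2wk_4520 (557.1 CPM) was the lowest of its group and CKp25_2wk_4518 (538.3 CPM) of its own, against 579.4 to 660.8 CPM in the other 2-week libraries. Over all 31 constitutive genes, the sum was 1538 CPM in CKp25_2wk_4518 and 1629 CPM in CK_2wk_4520, and in the other 2-week libraries it was 1642 and 1694 CPM in CKp25 against 1775 and 1783 CPM in CK. Each CKp25 sum was thus below the CK sums of libraries with a like alignment share, although the whole 2-week groups overlapped. That grouping leaves few libraries of each genotype on a side, was made by the alignment shares and was not tested. CK_2wk_4520 and CKp25_2wk_4518 also had the highest summed choroid plexus markers of their groups. Without CK_2wk_4520 and CKp25_2wk_4518 the median log2 fold change of the constitutive genes at 2 weeks was -0.11. With a term for them, an alternative chosen after seeing the data, it was -0.12, and edgeR called 0 of the 31 genes.

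The ATPases of the 19S base (Psmc1, Psmc2, Psmc3, Psmc4, Psmc5 and Psmc6), which unfold and thread the substrate, summed to 400.5 ± 10.5 CPM in CK and 372.3 ± 14.7 CPM in CKp25 at 2 weeks, and to 402.4 ± 21.4 against 371.6 ± 16.0 CPM at 6 weeks. At 2 weeks each CK sum was above each CKp25 sum, and 0 of the 6 genes were called by edgeR at either time. The largest decreases in value among them were Psmc2 at 2 weeks (-0.22 ± 0.09, edgeR adjusted p = 0.0966) and Psmc3 at 6 weeks (-0.22 ± 0.09, adjusted p = 0.0582).

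The non-ATPases of the cap (Psmd1, Psmd2, Psmd3, Psmd4, Psmd6, Psmd7, Psmd8, Psmd11, Psmd12, Psmd13 and Psmd14) include ubiquitin receptors and the deubiquitinase Psmd14. They summed to 705.2 ± 22.2 CPM in CK and 673.0 ± 25.5 CPM in CKp25 at 2 weeks, with overlap, and to 693.7 ± 14.2 against 617.9 ± 17.9 CPM at 6 weeks, with none. At 6 weeks 10 of the 11 had a log2 fold change below 0, and 1 was called.

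That gene was Psmd2, the large scaffold subunit of the 19S base. It was at 153.4, 163.4 and 158.9 CPM in CK and 148.5, 162.3 and 158.9 CPM in CKp25 at 2 weeks, where the groups overlapped (-0.02 ± 0.07, SE, edgeR adjusted p = 0.886). At 6 weeks it was at 174.9, 162.7 and 166.2 CPM in CK and at 130.8, 147.0 and 132.4 CPM in CKp25, and every CKp25 library was below every CK library. Psmd2 fell by 0.30 ± 0.07 on the log2 scale (SE, edgeR adjusted p = 0.00307), or by 18.5%. The difference between the effects at the 2 times, -0.28 ± 0.10, did not pass (edgeR adjusted p = 0.194). The count of lower members at 6 weeks depended on the settings. It was 2 with no filter on low counts (with Psmc3), 5 with the alignment share as a covariate (Psmb1, Psmb7, Psmc3, Psmd2 and Psmd5), 3 without CK_6wk_3938 or without CKp25_6wk_4008, 2 without CKp25_6wk_3940, CK_2wk_4520 or CKp25_2wk_4518, and 2 with the added term for the 2-week libraries that stood apart (with Psmc3). Psmd2 was among them in each of the 21 alternatives.

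Counted by whether the 3 CPM values of CKp25 lay apart from the 3 of CK, all 4 inducible genes were above CK at both times, where 18.4 and 23.6% of all genes tested were. Of the 31 constitutive subunits 0 were above, and 5 were below at 2 weeks (Psmc2, Psmc5, Psmd1, Psmd4 and Psmd14) and 3 at 6 weeks (Psmc3, Psmd2 and Psmd14), where 17.8 and 21.6% of all genes were. Over all 47 tested members 7 and 8 were above at 2 and 6 weeks, and 5 and 5 below. Outside the 2 classes Psmc3ip and Psmg4 were above at both times, Psmg1 at 2 weeks, and Psme2b and Psmg3 at 6 weeks. Psmd5 and Psme3 were below at 6 weeks.

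The activators outside the inducible pair kept close to control levels. Psme3 encodes the nuclear activator PA28 gamma, and was at 60.7, 57.7 and 63.0 CPM in CK against 54.8, 57.7 and 58.3 CPM in CKp25 at 2 weeks, and at 61.4, 58.9 and 62.0 CPM against 53.0, 49.8 and 57.7 CPM at 6 weeks. Its 6-week groups did not overlap, but the log2 fold change of -0.19 ± 0.08 missed the threshold (SE, edgeR adjusted p = 0.0779), as did that of -0.09 ± 0.08 at 2 weeks (adjusted p = 0.483). Without CKp25_6wk_4008 the 6-week value was -0.25 (edgeR adjusted p = 0.0416). Psme4 encodes the large activator PA200, and was at 79.6, 74.9 and 87.4 CPM against 85.0, 74.0 and 68.3 CPM at 2 weeks and at 84.0, 90.0 and 90.6 CPM against 82.0, 81.3 and 88.4 CPM at 6 weeks. Those groups overlapped, with -0.09 ± 0.09 (SE, edgeR adjusted p = 0.544) and -0.07 ± 0.09 (adjusted p = 0.564) on the log2 scale.

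Psmf1, which encodes the inhibitor PI31, was at 26.5, 25.4 and 24.99 CPM in CK and 25.2, 33.2 and 27.8 CPM in CKp25 at 2 weeks, and at 25.02, 30.4 and 25.1 CPM against 25, 27.4 and 31.6 CPM at 6 weeks. The groups overlapped, with log2 fold changes of 0.16 ± 0.12 (SE, edgeR adjusted p = 0.425) and 0.06 ± 0.13 (adjusted p = 0.738). Chaperones that build the 19S base (Psmd5, Psmd9 and Psmd10) had 0 of 3 called by edgeR at either time, and those that build the core (Psmg1, Psmg2, Psmg3 and Psmg4) had 0 of 4. Among them Psmd5 had a log2 fold change of -0.25 ± 0.09 at 6 weeks (edgeR adjusted p = 0.0561), and Psmg4 one of 0.68 ± 0.31 at 6 weeks (adjusted p = 0.109).

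Psma8, the testis form of an alpha subunit, and Psmb11, the thymus form of the Psmb5 site, were too low to test, with 28 and 34 counts over all 12 libraries. Psmc3ip was at 1.34, 1.64 and 1.22 CPM in CK and 3.79, 3.89 and 4.90 CPM in CKp25 at 2 weeks, and at 1.22, 1.01 and 1.22 CPM against 2.20, 3.06 and 3.64 CPM at 6 weeks. Its groups did not overlap, and it rose by 1.57 ± 0.30 (SE, edgeR adjusted p = 0.00121) and 1.35 ± 0.33 (adjusted p = 0.00468) on the log2 scale. Its annotated span overlaps that of Mlx. With the alignment share as a covariate its 6-week value was 1.12 (edgeR adjusted p = 0.0557).

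No member was called between times in the fit over all libraries. The CKp25 effect differed between 6 and 2 weeks in 0 of the 47 genes in either direction (0.374 and 0.18% of all genes tested). Psmd2 alone had an unadjusted p under 0.05, against 1085 higher and 992 lower of all 14457 genes. From 2 to 6 weeks within CKp25, edgeR called 0 higher and 0 lower (6.12 and 5.53% of all genes). At an unadjusted p under 0.05 there were 1 and 4, against 1863 and 1835 of all 14457 genes. Within CK edgeR called 0 and 0 (0 and 0% of all genes). At an unadjusted p under 0.05 there were 0, against 295 and 265 of all genes. DESeq2 and limma-voom also called 0 in these comparisons. Lower calls within CKp25 appeared under other settings: Psmd2 with the alignment share as a covariate, without CKp25_2wk_4518 or without both libraries that stood apart, Psmd2 and Psmd12 with the added term for them, Psmd2 and Psmd3 without CKp25_6wk_3940, and Psmd7 without CKp25_6wk_4008.

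Genes that trim peptides and load them on MHC class I work downstream of the inducible subunits. Of 9 tested, 7 rose at 2 weeks and 6 at 6 weeks, against 11.6 and 18.1% of all genes, and 0 fell. The largest changes were those of Tap1, a subunit of the peptide transporter (3.54 ± 0.25 and 2.65 ± 0.26, SE, edgeR adjusted p = 1.90e-08 and 1.14e-06), B2m, the light chain of MHC class I (2.98 ± 0.14 and 3.06 ± 0.14, adjusted p = 2.36e-10 and 2.45e-10), and Tapbp, the tapasin bridge of the loading complex (1.81 ± 0.13 and 1.66 ± 0.14, adjusted p = 3.02e-08 and 1.40e-07). The median log2 fold change of the list was 1.01 at 2 weeks and 0.99 at 6 weeks.

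Of 10 genes of the interferon route known to induce the immunoproteasome, 9 were tested, and 5 rose at 2 weeks and 6 at 6 weeks, against the same 11.6 and 18.1%. Nlrc5, a transactivator of MHC class I genes, had log2 fold changes of 4.15 ± 0.31 and 3.24 ± 0.31 (SE, edgeR adjusted p = 3.22e-08 and 6.24e-07). Irf8, a transcription factor of myeloid cells, had 3.15 ± 0.26 and 3.39 ± 0.27 (adjusted p = 1.39e-07 and 9.64e-08). Ifng, the gamma interferon gene, had 0 counts in all 12 libraries. The median of the 9 was 1.77 and 1.12.

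Of 12 regulators of constitutive subunits and genes of ubiquitin supply tested, 2 rose and 1 fell at 2 weeks, against 11.6 and 7.99% of all genes. At 6 weeks 3 rose and 0 fell, against 18.1 and 15.2% of all genes. Nfe2l1, the factor that raises proteasome genes when the protease is impaired, was at -0.16 ± 0.08 and -0.01 ± 0.08 (SE, edgeR adjusted p = 0.159 and 0.970). Its relative Nfe2l2, of the oxidative stress response, rose by 1.08 ± 0.19 and 1.89 ± 0.19 (adjusted p = 6.15e-04 and 1.18e-06). Ube2l6, the conjugating enzyme of the interferon-induced modifier ISG15, rose by 2.44 ± 0.28 and 1.37 ± 0.29 (adjusted p = 5.80e-06 and 0.00159). Uba1, the main ubiquitin-activating enzyme, fell by 0.20 ± 0.07 at 2 weeks (edgeR adjusted p = 0.0463) and was at -0.18 ± 0.07 at 6 weeks (adjusted p = 0.0608). The median of the list was -0.07 and -0.02.

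**Figure D4:**
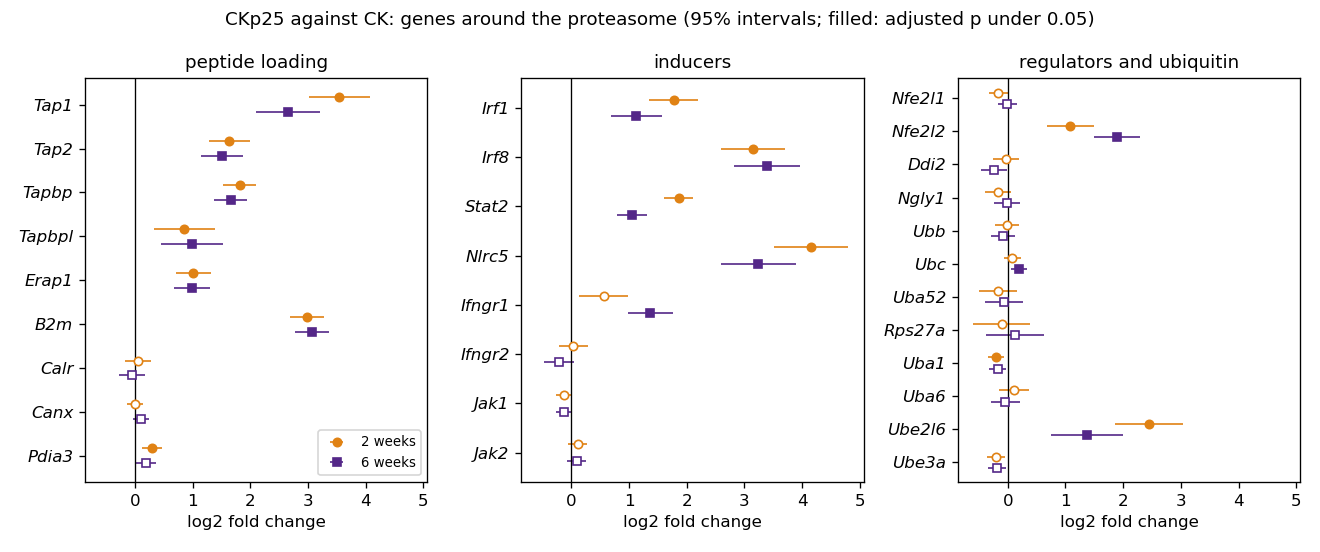
Log2 fold change of CKp25 against CK (x axes) with 95% intervals at 2 weeks (circles) and 6 weeks (squares) for genes of peptide loading, inducers and regulators (y axes), filled where the adjusted p was under 0.05. Nlrc5 reaches 4.15 and Tap1 3.54 at 2 weeks, while Nfe2l1 lies at -0.16 and -0.01.

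Partners that bind the proteasome or shuttle substrates to it gave 1 higher and 1 lower of 18 tested at 2 weeks, against 11.6 and 7.99% of all genes. At 6 weeks they gave 1 higher and 6 lower, against 18.1 and 15.2%. Sem1, the smallest cap subunit, rose by 0.39 ± 0.13 at 2 weeks (SE, edgeR adjusted p = 0.0459). Fbxo7, an F-box protein that binds PI31, rose by 0.34 ± 0.10 at 6 weeks (adjusted p = 0.0173). Neither rise was called at the other time, and at 6 weeks 3 of the 18 genes had a log2 fold change above 0. Ube3c, a ligase that extends ubiquitin chains at the proteasome, fell by 0.31 ± 0.08 at 6 weeks (edgeR adjusted p = 0.00721). The other genes lower at 6 weeks were Usp14, Ecpas, Rad23b, Ubqln1 and Ubqln2, of which Ubqln2 was lower at 2 weeks too. The median of the list was -0.04 and -0.16.

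Markers of cell types moved with genotype. All 8 microglial markers rose at both times, against 11.6 and 18.1% of all genes tested. Their summed level was 212 to 232 CPM in CK and 719 to 906 CPM in CKp25 at 2 weeks, and 196 to 225 against 792 to 1061 CPM at 6 weeks. That is 3.70-fold and 4.30-fold in the means, beside 2.47-fold and 2.36-fold for the summed inducible genes. The inducible sum joins unlike changes, of 12.4-fold and 15.1-fold for Psmb8 and of 1.59-fold to 2.15-fold for Psmb10, Psme1 and Psme2. The largest changes among the microglial markers were those of Ptprc (2.77 ± 0.25 and 3.59 ± 0.25, log2, SE) and Aif1 (2.86 ± 0.25 and 2.47 ± 0.25). Of 6 neuronal markers 4 fell at each time, against 7.99 and 15.2% of all genes tested. The largest falls were those of Slc17a7 (-0.55 ± 0.10 and -0.76 ± 0.10), Snap25 (-0.40 ± 0.09 and -0.60 ± 0.09) and Rbfox3 (-0.36 ± 0.12 and -0.60 ± 0.12). At each time 2 were not called, and at 6 weeks those 2 lay above 0, the higher at 0.13. The sum of the 6 was 3429 to 3635 CPM in CK and 2607 to 2812 CPM in CKp25 at 2 weeks and 3423 to 3555 against 2226 to 2874 CPM at 6 weeks. The sum of these 6 markers was thus 0.765-fold and 0.722-fold that of CK, beside 0.940-fold and 0.932-fold for the summed constitutive subunits. The ranges of the constitutive sums overlapped between genotypes at both times over all libraries of a time.

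At 2 and 6 weeks 11.6 and 18.1% of all genes tested rose, the background for each list below. Astrocyte markers rose in 4 and 6 of 6 genes at these times. The largest rises were those of Gfap (3.10 ± 0.14 and 3.69 ± 0.14, log2, SE), Aqp4 (1.71 ± 0.14 and 1.86 ± 0.14) and, at 6 weeks, Gja1 (0.79 ± 0.08). All 4 markers of dividing cells rose at both times, Mki67 by 6.04 ± 0.27 and 3.60 ± 0.33, Top2a by 4.66 ± 0.28 and 2.86 ± 0.34 and Mcm6 by 2.67 ± 0.15 and 1.75 ± 0.17. Oligodendrocyte and endothelial markers rose in 0 of 5 and 0 of 5 genes at 2 weeks and in 5 of 5 and 5 of 5 at 6 weeks, among them Mog (0.67 ± 0.19), Mag (0.63 ± 0.10), Cnp (0.60 ± 0.13), Cdh5 (0.88 ± 0.19), Pecam1 (0.81 ± 0.17) and Tek (0.80 ± 0.15). Choroid plexus markers had 0 of 5 called by edgeR, but their sum differed widely between libraries of the same group, from 17.5 to 961.9 and 23.2 to 1163 CPM in CK and CKp25 at 2 weeks and from 36.6 to 2422 and 15.1 to 1998 CPM at 6 weeks. The highest sums at 2 weeks were those of CK_2wk_4520 and CKp25_2wk_4518, the libraries that stood apart. The 8 markers of T and NK cells were too low to test, and summed to 0.203 to 0.503 CPM in CK and 0.185 to 0.875 CPM in CKp25 at 2 weeks, with overlap, and to 0 to 0.524 against 0.966 to 4.20 CPM at 6 weeks, with none. The 4 of B cells, also too low to test, summed to 0 to 0.671 against 0.583 to 1.80 CPM and to 0 to 0.349 against 0.322 to 1.09 CPM. Among the defining markers Cd3e had 1 count over the 12 libraries, in a CK library at 2 weeks, and Ms4a1 had 0. The higher CKp25 sums therefore came from other markers of these lists, and the low counts of Cd3e and Ms4a1 do not show that such cells were absent. The part of these cell types in the member changes was not tested.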

How the data were processed

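RNA sequencing of 12 hippocampal libraries gave the values. The deposited table holds raw read counts per Ensembl gene. The tools named in the submitters' processing notes are Bowtie, Picard, MACS2 and HTSeq 0.6.1, and the builds are NCBIM37 and mm9. Per the labels' protocols, RNA depleted of ribosomal RNA was made into stranded libraries. Whether counting used the strand is not stated in those sources. The deposited counts leave out multiply aligned reads, which undercounts near-identical copies. Entries that name no gene, 60 to 63.6% of a library's total (38.1 to 46.9% outside annotated features), entered neither library sizes nor tests. Of the genes 86.6% had a symbol. The 28 peak lists are in mm9 coordinates and were not used here.

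Differential expression was fitted with edgeR 4.0.16 in R 4.3.3 (filterByExpr, TMM factors, 4 group means over all 12 libraries, quasi-likelihood test, Benjamini-Hochberg over 14457 genes, threshold 0.05). CPM were computed on TMM-scaled library sizes. Ratios within libraries used a pseudocount of 0.5 and an exact permutation test within times. Alternatives were DESeq2 1.42.0 size factors and test, limma-voom (limma 3.58.1), upper-quartile factors, no filter, only the groups compared, the share of reads with several alignments as a covariate, libraries left out and, chosen after seeing the data, a term for the 2-week libraries that stood apart. The fits were tested on simulated data. Pairs of libraries within a group gave a chi-square per gene of 1.46 to 9.07, above sampling noise for every pair. At 2 weeks pairs with CK_2wk_4520 or CKp25_2wk_4518 gave 5.58 to 9.07, and the pairs without them gave 1.46 and 2.25. Every member was named, with full values for the inducible genes, their counterparts, the other activators, the inhibitor and the other members called. Of each further list the called genes with the 3 largest changes are given, apart from some that are not reported here, and a few others, which the text names with their values, were chosen after those were seen. The members and lists were chosen with earlier results of these data known.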

Additional observations from a re-analysis of the deposited data

Results flagged for a closer look

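None of the members had a CKp25 effect that differed between 2 and 6 weeks in edgeR's test. Among the genes around them, 2 of the 134 members and list genes tested did. The effect on Stat2, a signal transducer of type I interferon, was 1.86 ± 0.12 at 2 weeks and 1.05 ± 0.12 at 6 weeks on the log2 scale (SE), a difference of -0.81 ± 0.17 (edgeR adjusted p = 0.0470), and CKp25 libraries were above CK libraries at both times. The effect on Gja1, the astrocyte gap junction gene, was 0.16 ± 0.09 at 2 weeks and 0.79 ± 0.08 at 6 weeks, a difference of 0.63 ± 0.12 (edgeR adjusted p = 0.0248).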

How the results depend on the processing

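The 4 inducible genes were called higher at both times in each of the 21 alternatives, with a median log2 fold change of 1.00 to 1.09 at 2 weeks and 0.88 to 1.04 at 6 weeks. The median of the constitutive subunits stayed below 0 in the same alternatives. At 2 weeks it was -0.12, and -0.16 to -0.04 with 1 library left out, the value nearest 0 coming without CKp25_2wk_4518. At 6 weeks it was -0.08, and -0.22 with the alignment share as a covariate. Members lower at 6 weeks numbered 1, but 2 with no filter, 5 with the covariate, 1 to 3 with 1 library left out, 2 without both CK_2wk_4520 and CKp25_2wk_4518 and 2 with a term for those libraries, which was added after seeing the data. Members lower from 2 to 6 weeks within CKp25 numbered 0, but 1 with the covariate, 0 to 2 with 1 library left out, 1 without both of those libraries and 2 with the term for them. The differences in log2 ratio were 3.97 and 4.02 for Psmb8 to Psmb5 and 1.01 and 0.88 for Psmb10 to Psmb7 at 2 and 6 weeks alone, where p cannot go below 0.1. With a pseudocount of 5 they were 3.37 and 0.90 over both times. Of 546 values of named members under alternatives, 8 changed their side of the threshold, and the text gives 7 of them beside the genes. The sign turned in 9 values of 5 genes not called at that time (Psmb5, Psmb6, Psmd2, Psme4 and Psmf1) and in 0 values called in either fit. The remaining value on the other side of the threshold is Psme2b at 2 weeks without both libraries that stood apart, 0.72 (edgeR adjusted p = 0.206). The cause was not tested. Scaling alternatives moved the median of all genes by at most 0.02 on the log2 scale. No paired analysis was possible because no library number is shared between groups and the labels tie no libraries together, so the term above was set by the alignment shares. CK_2wk_4520 and CKp25_2wk_4518 also had the highest choroid plexus sums of their groups (961.9 and 1163 CPM). What sets these libraries apart was not tested. The ratio of Psmb9 to Psmb6 was not run, since Psmb9 is not analysed here. In CK, Psmb8 rested on 29 and 22 counts over 3 libraries at 2 and 6 weeks, which limits the precision of its fold change.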
